A study of Sus scrofa with 2 samples.

Results

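Invariant natural killer T (iNKT) thymocytes of the pig were compared by how much of the transcription factor gene ZBTB16 (ENSSSCG00000030095) was counted in each cell. The groups were thus chosen by measured ZBTB16 counts of the same cells that are compared. ZBTB16-high cells held 3 or more unique molecular identifiers (UMIs, each standing for 1 captured RNA molecule) of ZBTB16, and ZBTB16-undetected cells held 0. Both groups were limited to cells of the iNKT library with at least 500 genes, at most 10% of UMIs from 13 mitochondrial genes and 3000 to 6000 UMIs. This gave 674 ZBTB16-high and 3310 ZBTB16-undetected cells, together 3984 of the 7243 iNKT cells in that window, of 12097 iNKT barcodes and of 21209 barcodes in the series. The other 3259 cells of the window held 1 or 2 ZBTB16 UMIs and belong to neither group.

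Thymi of 2 mixed-breed pigs were used, untreated and 22 weeks of age. iNKT cells were enriched with magnetic beads, live cells were sorted, and the cells of both pigs were pooled into 1 droplet library read from the 3′ end of transcripts. A second library held total thymocytes of the same thymi. Both ZBTB16 groups therefore share animals, enrichment and library, the 2 pigs cannot be told apart, and no cell is a replicate of another. All differences between the groups are descriptions, and the 95% intervals cover counting error only.

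ZBTB16 encodes PLZF, a BTB-domain zinc-finger protein that gives iNKT cells their innate-like effector programme. In mice, iNKT precursors turn PLZF on soon after positive selection by CD1d on other thymocytes, and mature subsets keep different levels of it. The interleukin-4 producing iNKT2 cells hold the most, iNKT17 cells less and the interferon-producing iNKT1 cells little. PLZF works with the ubiquitin ligase CUL3 and with corepressors, and EGR2 is a direct activator of its gene.

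ZBTB16 averaged 3.53 UMIs per ZBTB16-high cell, which was 758 CPM (counts scaled so that the UMIs summed over a group make 1000000), against 0 in the undetected group by construction. Over the whole window the level was 217.8 CPM, so a cell of this depth holds about 1 ZBTB16 UMI and many zeros are dropouts. If every iNKT cell had the same rate per UMI, 2905 cells (40.1%) would be expected at 0, and 3310 (45.7%) were observed. For 3 or more UMIs, 510 cells would be expected and 674 were observed, while 1 or 2 UMIs were found in 3259 cells where 3828 would be expected. Counts of ZBTB16 were thus spread more widely than a single rate gives, and an undetected cell cannot be told apart from a dropout. At the edge of the high group, 429 cells with 3 UMIs had 652 CPM and 1085 cells with 2 UMIs, just outside it, had 453 CPM.

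**Figure D1:**
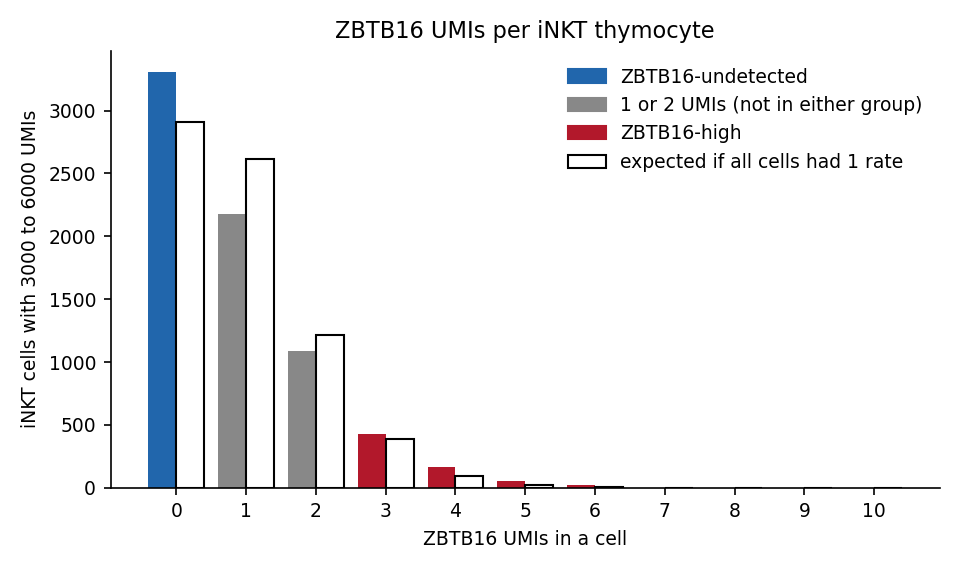
Number of iNKT cells with 3000 to 6000 UMIs (y axis) by their ZBTB16 UMIs (x axis), filled bars for the cells observed and open bars for the number expected if all cells had 1 rate per UMI. The observed bars stand above the open bars at 0 and from 3 UMIs upwards, and below them at 1 and 2.

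Depth differed between the groups. The median cell held 4710 UMIs and 1637.5 genes in the ZBTB16-high group and 3958.5 UMIs and 1448 genes in the undetected group. Among cells of 3000 to 3500 UMIs, 3.81% were ZBTB16-high and 60.01% undetected. Among cells of 5500 to 6000 UMIs these shares were 17.9% and 29.2%. The ZBTB16 level itself was 185 CPM in the first of these bins and 243 CPM in the last. Mitochondrial genes took a median of 5.02% and 4.73% of a cell's UMIs, and ribosomal protein genes took 25.6% and 26.2% of all UMIs. In the total thymocyte library, 6 of 2007 cells of the same UMI window held any ZBTB16 (0.299%, exact binomial interval 0.110 to 0.650%) and none held 3, at a median of 4018 UMIs per cell. The 2 libraries had 41 barcodes in common, 15 of them in the 2 groups.

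Genes of T cells in general were found in both groups, and they do not tell iNKT cells from other T cells. That the undetected cells are iNKT cells rests on the label and the enrichment. CD3E stood at 1222 CPM in ZBTB16-high and 1259 CPM in undetected cells, and CD3D at 623 and 617 CPM. No UMI of CD3D, CD3E, CD3G or CD247 was found in 0 of 674 and 2 of 3310 cells. Markers of double-positive, myeloid, erythroid and stromal cells were near 0 in both groups, and those of B cells and of other T cells were not. The 10 double-positive thymocyte genes summed to 4.46 and 4.21 CPM, with RAG1 at 0 and 2 UMIs and DNTT at 0 in both. Myeloid or dendritic markers summed to 12.4 and 13.8 CPM, erythroid to 0.638 and 2.66 CPM, and epithelial or stromal to 5.10 and 2.07 CPM. The 9 B or plasma cell markers summed to 117 and 126 CPM, of which CD79A alone made 110 and 116 CPM, while MS4A1 gave 0 and 2 UMIs. CD4 gave 3 and 16 UMIs and CD8B 1 and 4 UMIs. CD8 single-positive markers summed to 38.6 and 35.2 CPM and CD4 single-positive markers to 487 and 456 CPM. Gamma-delta T markers summed to 274 and 225 CPM, of which GATA3 alone made 190 and 155 CPM. TRDC, the constant gene of the delta chain, was found in 0 cells of both groups. Regulatory T markers summed to 667 and 665 CPM, with FOXP3 listed at 0. Cytotoxic T or NK markers were the class with the largest difference in CPM towards the undetected group, with 46.5 and 62.05 CPM. Its members differed: GZMH made 3.19 and 10.1 CPM and KLRK1 0.319 and 4.06 CPM. NKG7 made 20.4 and 26.4 CPM, with a ratio interval that holds 1 (0.583 to 1.01). PRF1 went the other way, with 22.6 and 21.5 CPM.

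The groups were alike for most of the transcriptome. Of 7783 genes with at least 100 UMIs over both groups, ZBTB16 left out, 122 (1.57%) were at least 1.5-fold higher in ZBTB16-high cells and 123 (1.58%) at least 1.5-fold lower. With trimmed-mean (TMM) scaling the same fold was passed by 82 genes upwards and 157 downwards, so the split between directions depends on the scaling. Most of the genes past the fold were sparse: 216 of the 245 had under 500 UMIs, with a median of 181. Among the 2105 genes with at least 1000 UMIs, 2 (0.095%) were higher, HPGDS and IGF2R, and 10 (0.475%) were lower: CD2, CD9, CXCR4, IFNGR2, REL, S100A4, S100A6, TCF7, TGFB1 and TSC22D3. TSC22D3, the glucocorticoid-induced leucine zipper, was named after its values were seen, with 59.3 against 95.3 CPM. The median log2 ratio of all tested genes was 0.04.

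**Figure D2:**
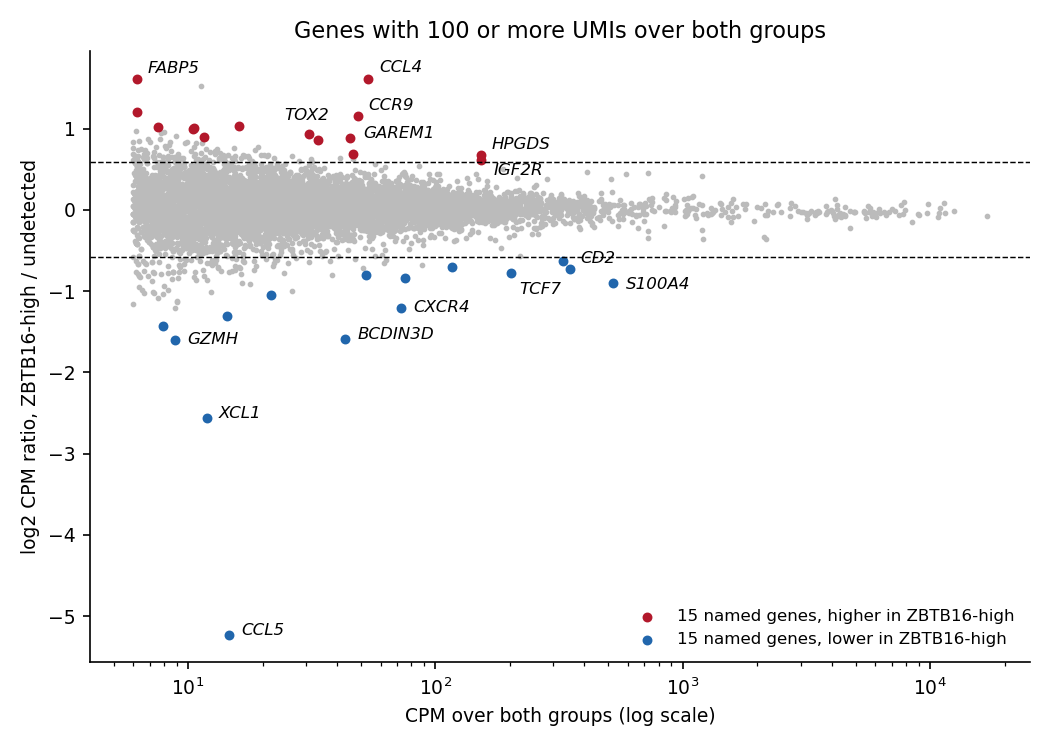
Each point is 1 gene with at least 100 UMIs, with its CPM over both groups on a log x axis and the log2 ratio of ZBTB16-high to undetected cells on the y axis; dashed lines mark 1.5-fold and coloured points are the 15 named genes of each direction. Ratios scatter widely at low CPM, and above 100 CPM the coloured points include HPGDS and IGF2R above and S100A4, CD2 and TCF7 below.

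Of the named genes higher in ZBTB16-high cells, CCR9 and GAREM1 alone passed 1.5-fold under each of 20 alternative settings. CCR9, the receptor for the thymic and gut chemokine CCL25, gave 87.7 CPM in the high and 39.6 CPM in the undetected group (ratio 2.21, 1.91 to 2.57). GAREM1, an adaptor in growth factor receptor signalling, had 72.0 against 39.1 CPM, a ratio of 1.84 (1.57 to 2.15). Over these settings the ratio ran between 1.57 and 4.84 for CCR9 and between 1.65 and 3.38 for GAREM1. The settings draw on the same library in which the genes were ranked, and several nearly repeat the main ratio by construction. Staying past the fold is thus a description and adds no support. With each cell thinned to 3000 UMIs, CCR9 was found in 19.0% of ZBTB16-high and 8.46% of undetected cells (24.3% and 11.7% unthinned) and GAREM1 in 18.7% and 9.88% (25.1% and 13.4% unthinned). GAREM1 was found in 0 of 628 RAG1-positive total thymocytes (median 4157 UMIs) thinned in the same way, which allows up to 0.586%. CCR9 was found in 20.7% of them, so no background share can be read for it there.

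HPGDS and IGF2R were the most abundant of the higher genes. HPGDS, the haematopoietic prostaglandin D2 synthase, had 220 CPM in ZBTB16-high and 138 CPM in undetected cells, a ratio of 1.59 (1.46 to 1.74). It was detected in 45.4% and 27.7% of thinned cells (58.8% and 34.9% unthinned), against 0.159% of RAG1-positive total thymocytes. IGF2R, the receptor that carries mannose 6-phosphate tagged enzymes to lysosomes and takes up insulin-like growth factor 2, had 212 against 139 CPM, a ratio of 1.52 (1.39 to 1.67). Both ratios came below 1.5 once undetected cells were weighted to the depth of ZBTB16-high cells, a setting added after the data had been seen, at 1.33 for HPGDS and 1.42 for IGF2R.

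Other genes of the 15 highest were of middle or low abundance. TOX2, an HMG-box transcription factor of the TOX family, had 50.1 against 26.4 CPM, a ratio of 1.90 (1.56 to 2.30). MARCKS, an actin-linked substrate of protein kinase C, had 52.9 against 29.2 CPM (ratio 1.81, 1.504 to 2.18). Its ratio was 1.18 in cells of 4000 to 5000 UMIs and 1.30 in those of 6000 to 12000 UMIs. TGFB2, a transforming growth factor beta ligand, had 66.6 against 41.6 CPM (ratio 1.60, 1.36 to 1.88). The remaining members were sparser. CAPSL, which lies near IL7R in the Sscrofa11.1 annotation of RefSeq, had 27.4 against 13.4 CPM, a ratio of 2.04 (1.56 to 2.65), while IL7R itself had a ratio of 1.15. CAPSL stood at 1.12 in cells of 6000 to 12000 UMIs. FABP5, a fatty acid binding protein, had 13.7 against 4.51 CPM, a ratio of 3.04 (2.01 to 4.57), but 1.29 in cells of 3000 to 4000 UMIs and 0.903 in those of 6000 to 12000 UMIs. LRTM2, TMED8 and KCNIP3 stood between 11.5 and 17.9 CPM in ZBTB16-high cells, at ratios of 2.28, 1.997 and 1.98. The direction of TMED8 turned in cells of 6000 to 12000 UMIs (0.896), where KCNIP3 stood at 1.26. LRTM2 had 0 UMIs in the 39 ZBTB16-high cells of 1500 to 3000 UMIs.

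For 3 of the 15, single cells carried much of the value. CCL4, a chemokine of activated lymphocytes, had 118 against 38.6 CPM, a ratio of 3.06 (2.67 to 3.50). However, 1 ZBTB16-high cell held 147 of the 371 CCL4 UMIs (39.6%), and without the top cell of each group the ratio was 1.97. Its share of thinned cells was 3.86% and 2.90% (4.45% and 3.38% unthinned), and 0.318% in RAG1-positive total thymocytes. Its ratio was below 1 in cells of 3000 to 4000 UMIs (0.707) and of 5000 to 6000 UMIs (0.577), so the direction of CCL4 was not stable. ZNF646 went from a ratio of 1.85 to 1.14 without the top cell, which held 25 of 58 UMIs in the ZBTB16-high group. In MISP, 1 cell of each group held 55.0% and 51.2% of the UMIs, at a ratio of 2.01.

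S100A4 was the most abundant of the genes lower in ZBTB16-high cells. This small calcium-binding protein of motile and memory T cells had 308 CPM in ZBTB16-high and 574 CPM in undetected cells, a ratio of 0.536 (0.5004 to 0.573). It was found in 25.8% against 40.4% of thinned cells (30.4% and 43.8% unthinned), and in 0.478% of RAG1-positive total thymocytes. Its relative S100A6 had 227 against 353 CPM (ratio 0.645, 0.595 to 0.698). CD2, the adhesion and costimulatory receptor for CD58, had 227 against 376 CPM (ratio 0.604, 0.558 to 0.653). CD9, a tetraspanin of the cell surface, had 77.1 against 126 CPM (ratio 0.614, 0.535 to 0.703), with 16.8% and 26.3% of thinned cells positive (23.1% and 31.9% unthinned) against 0.318% of RAG1-positive total thymocytes.

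TCF7, CXCR4, TGFB1 and S1PR1 were lower too. TCF7 encodes TCF-1, a factor of early T cells and of naive and memory cells, and had 128 against 220 CPM (ratio 0.581, 0.522 to 0.645). CXCR4, the receptor for CXCL12 that holds immature thymocytes in the cortex, had 35.1 against 81.3 CPM (ratio 0.431, 0.351 to 0.525). TGFB1, the transforming growth factor beta ligand of most T cells, had 45.6 against 82.1 CPM, a ratio of 0.555. S1PR1, the sphingosine 1-phosphate receptor through which mature thymocytes leave, had 32.5 against 57.1 CPM, a ratio of 0.569. The 2 TGF-beta ligand genes thus stood in opposite directions, TGFB2 higher and TGFB1 lower in ZBTB16-high cells. Neither passed 1.5-fold in cells of 4000 to 5000 UMIs (TGFB2 1.47, TGFB1 0.778) or of 6000 to 12000 UMIs (TGFB2 1.30, TGFB1 0.891).

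Effector genes with few UMIs made the lowest ratios. CCL5, a chemokine of cytotoxic cells, had 1 UMI in ZBTB16-high and 242 UMIs in undetected cells (0.319 against 17.9 CPM, ratio 0.0178, 0.000450 to 0.1003), but the 242 UMIs came from 13 cells. XCL1, a chemokine of NK and CD8 T cells, had 7 against 191 UMIs (ratio 0.158, 0.0627 to 0.332), and GZMH, a granzyme, 10 against 137 UMIs (ratio 0.315, 0.148 to 0.597). Cells with at least 2 UMIs of these 3 genes together were 1 of 674 (0.148%) and 25 of 3310 (0.755%). The difference in CCL5 and XCL1 therefore came from under 1% of the undetected cells. Without all cells with a UMI of CCL5, XCL1 or GZMH, the other 12 lowest genes all remained past 1.5-fold, at ratios of 0.319 to 0.625.

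The last members of the lowest 15 were BCDIN3D, FADS3, FSD1L and MDK. BCDIN3D, an RNA methyltransferase, had 16.3 against 49.2 CPM, a ratio of 0.330 (0.244 to 0.440). It was found in nearly the same share of thinned cells, 4.15% and 5.29% (6.23% and 7.25% unthinned; 4.14% in RAG1-positive total thymocytes), and the highest cell held 6 UMIs in the ZBTB16-high and 47 in the undetected group. FADS3, a fatty acid desaturase family member, had 6.38 against 16.2 CPM, a ratio of 0.394 (0.236 to 0.624). BCDIN3D and FADS3 stayed past 1.5-fold under all 20 alternatives, which draw on the same library and are no replicate check. FSD1L had a ratio of 0.354 and MDK, the heparin-binding growth factor midkine, one of 0.477. In cells of 1500 to 3000 UMIs these stood at 4.02 and 1.69, and in those of 6000 to 12000 UMIs FSD1L was at 1.02.

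The levels in cells with 1 or 2 ZBTB16 UMIs, which were in neither group, describe the steps between the groups. Since the named genes were chosen for their difference between the ends, the direction of the ends is fixed by the choice, and the counts below support nothing. The CPM of these cells lay between those of the groups for 13 of the 15 highest and 14 of the 15 lowest genes. Over cells with 0, 1, 2 and 3 or more ZBTB16 UMIs, the level was ordered in 13 of the 15 highest genes (all but CCL4 and MISP) and 11 of the 15 lowest (all but CCL5, XCL1, GZMH and S1PR1). Among all 7783 genes 14.8% were so ordered in either direction and 48.5% had the middle cells between, and among the 245 past the fold 39.6% and 83.7%. CCR9 stood at 39.6, 53.8, 63.0, 84.0, 90.9 and 99.97 CPM in cells with 0, 1, 2, 3, 4 and 5 or more ZBTB16 UMIs. S100A4 stood at 574, 462, 448, 368, 197 and 221 CPM in the same order, and TCF7 at 220, 187, 161, 143, 104 and 99.97 CPM. For these 3 genes the step from 2 to 3 UMIs, where the high group begins, was in the direction of the steps before it. BCDIN3D had its widest step there, from 37.8 to 16.7 CPM, after 49.2 and 46.4 CPM at 0 and 1 UMIs.

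**Figure D3:**
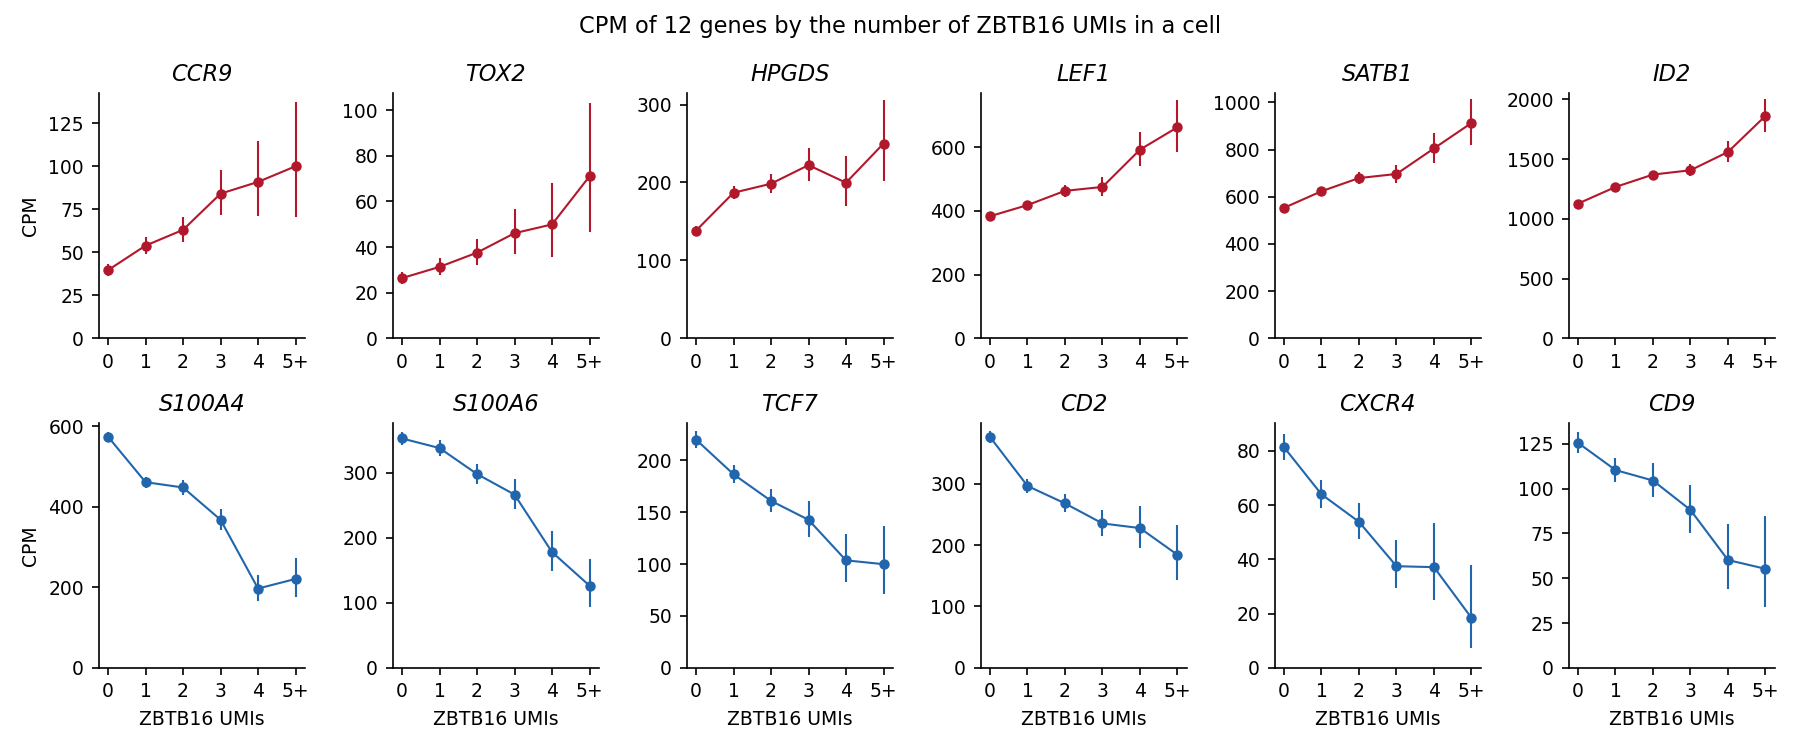
CPM (y axis, from 0) of 6 genes higher (top) and 6 genes lower (bottom) in ZBTB16-high cells, by the ZBTB16 UMIs in a cell (x axis); bars are exact Poisson 95% intervals of the summed counts. CCR9, TOX2, LEF1, SATB1 and ID2 stand higher at each step, and S100A6, TCF7, CD2, CXCR4 and CD9 lower.

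Depth moved with the group, and its part in the differences was not tested. Thinning each cell to 3000 UMIs after grouping keeps the same groups, and the CPM ratios are expected to stay nearly the same. That all 15 highest and all 15 lowest genes stayed past 1.5-fold with it therefore says nothing about depth. The ratios of CCR9 were 2.60, 1.74 and 2.13 in cells of 3000 to 4000, 4000 to 5000 and 5000 to 6000 UMIs, and 1.57 in cells of 6000 to 12000 UMIs that the main comparison does not use. GAREM1 gave 1.66, 1.78, 1.65 and 1.71. HPGDS went from 1.96 through 1.41 and 1.21 to 1.28, and TOX2 from 3.89 through 1.21 and 1.46 to 1.01. S100A4 gave 0.373, 0.627, 0.638 and 0.817. In the deepest cells, 592 ZBTB16-high and 400 undetected, 3 of 14 measured highest genes and 5 of the 15 lowest were past 1.5-fold. Of these, 11 of the highest were above 1 and 12 of the lowest below 1. The ratio of CXCR4 was 1.13 (0.931 to 1.38) and that of CD9 1.04 (0.884 to 1.24), so the lower level of these 2 genes was not found there. FSD1L was above 1 as well (1.02), and S1PR1 stood at 0.964 and TGFB1 at 0.891. With undetected cells weighted to the depth of ZBTB16-high cells, 13 of the 15 highest and 12 of the 15 lowest genes stayed past 1.5-fold. The ratios of TCF7, CD2 and CD9 were 0.687, 0.696 and 0.729 with this weighting, short of 1.5-fold.

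**Figure D4:**
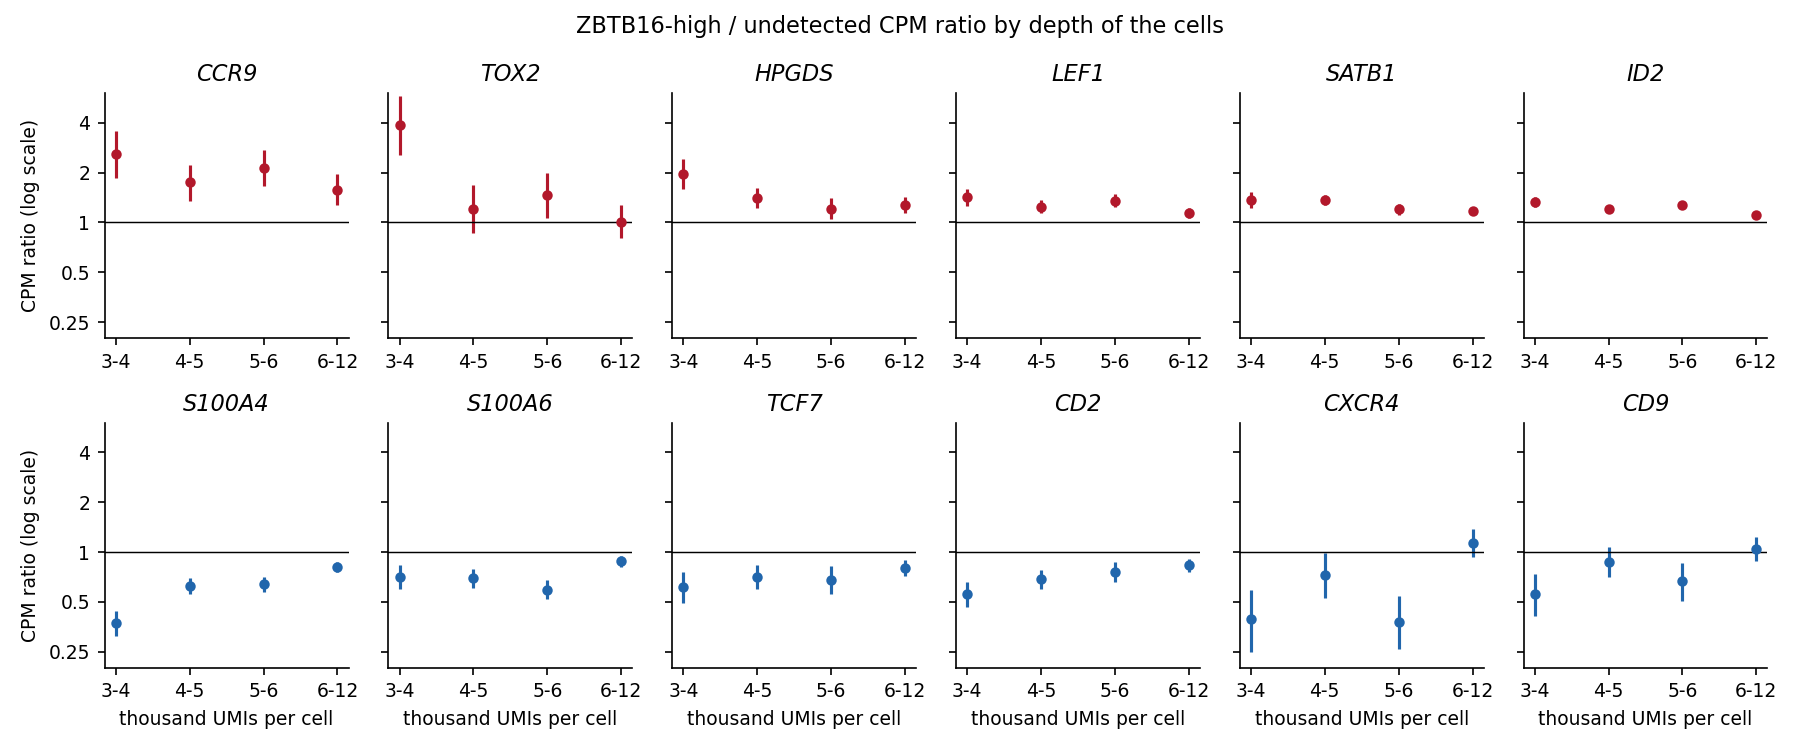
CPM ratio of ZBTB16-high to undetected cells (log y axis) for the 12 genes of the plot by ZBTB16 UMIs, in 4 ranges of UMIs per cell (x axis, in units of 1000 UMIs), with exact 95% counting intervals. CCR9 stays above 1 in all 4 ranges and S100A4, S100A6, TCF7 and CD2 below 1, while CXCR4 and CD9 reach 1 in the deepest cells.

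Among 19 measured partners and upstream regulators of PLZF, 0 were past 1.5-fold in either direction, with a median log2 ratio of 0.14. Over all genes, 1.57% were higher and 1.58% lower past this fold, and these shares stand beside the counts of every list below. ID2, which blocks E-protein transcription factors, had 1500 against 1127 CPM, a ratio of 1.33 (1.29 to 1.38). SATB1, a chromatin organizer of thymocytes, had 750 against 553 CPM (ratio 1.36, 1.29 to 1.42). EGR2, the activator of ZBTB16, had 30.9 against 21.1 CPM (ratio 1.46, 1.15 to 1.85). CUL3, the ubiquitin ligase scaffold that binds PLZF, was at 100 against 91.4 CPM, a ratio of 1.10 (0.967 to 1.24) whose interval holds 1. The list did not stand on 1 side: 11 of the 19 were above the median of all genes, and MYB was lowest, at 0.687 (0.466 to 0.984). Of 30 T cell transcription factors, TOX2 was higher and TCF7 and STAT6 lower (median log2 0.06). STAT6, the signal transducer of interleukin-4, had 11.5 against 18.1 CPM (ratio 0.634, 0.434 to 0.902), and its direction turned in cells of 6000 to 12000 UMIs (1.08) and of 1500 to 3000 UMIs (1.54). LEF1, the partner of TCF-1 in the same family, had 527 against 383 CPM, a ratio of 1.38 (1.30 to 1.45), opposite to TCF7. RORA had a ratio of 1.41 and GATA3 one of 1.22.

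Lists that describe mouse iNKT stages and subsets had 0 to 2 members past the fold each, and with 1.57% and 1.58% of all genes past it, counts of this size in short lists say little about the lists. Over the other settings, the medians of 25 of all 27 lists fell on both sides of the median of all genes. The others were the iNKT2-associated genes, at 0.009 to 0.23 relative to all genes, and the ribosomal protein genes, at −0.21 to −0.03. All settings draw on 1 library, so a steady side is no replicate check. Of 8 measured precursor and immature genes, CCR9 was higher and 0 were lower, and their median log2 ratio was 0.36. LEF1 and EGR2 belong to it. Its members did not stand on 1 side: 5 of 8 were above the median of all genes, while 3 had ratios below 1, among them EGR1 at 0.957 and the costimulatory receptor CD27 at 0.911. Taken relative to all genes, the median was 0.32 and ran from −0.31 (1500 to 3000 UMIs) to 0.42 over the other settings. Of 5 measured iNKT1-associated genes, CCL5 and XCL1 were lower (median log2 −0.36). Relative to all genes this median was −0.40 and ran from −1.97 to 0.47 over the other settings, so it had no stable direction. IL2RB, the receptor chain for interleukins 2 and 15, had 88.9 against 67.1 CPM (ratio 1.33). TBX21, the defining factor of iNKT1 cells, gave 1 and 6 UMIs and IFNG was listed at 0. Of 11 iNKT2-associated genes, 0 passed the fold (median log2 0.09). IL4 had 31.9 against 22.8 CPM (ratio 1.40, 1.10 to 1.76), CCR4 148 against 116 CPM and MAF 37.6 against 32.7 CPM. Of the 11, 8 were above the median of all genes, while ICOS (0.941) and TNFRSF4 (0.965) were among those with ratios below 1. Of 4 iNKT17-associated genes, 0 passed the fold (median log2 −0.07): RORA was 1.41 and the serpin SERPINB1 0.673, with IL17A listed at 0. Of 13 innate-like memory surface genes, CD9 was lower and 0 were higher (median log2 0.02), with CD44 at a ratio of 1.11 and KLRB1 listed at 0. A listing at 0 may not mean absence of the RNA, since MCL1, a survival gene of T cells, was listed at 0 as well.

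Interleukin-4 was detected in 8.31% of ZBTB16-high and 5.62% of undetected cells after thinning (11.4% and 7.16% unthinned), and in 0 of 628 RAG1-positive total thymocytes. The ratio of IL4 was 2.37 in cells of 3000 to 4000 UMIs, 1.61 in those of 4000 to 5000 UMIs, 0.713 in those of 5000 to 6000 UMIs and 1.0007 in those of 6000 to 12000 UMIs. The higher level of IL4 was thus found in the shallower ranges alone.

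Of 10 measured cytokines and chemokines, CCL4 was higher and CCL5, XCL1, TGFB1 and TNFSF8 lower (median log2 0.10). Over all genes, 1.57% were higher and 1.58% lower. As given above, CCL5 and XCL1 rest on under 1% of the undetected cells, and 1 ZBTB16-high cell held 39.6% of that group's CCL4 UMIs. TNFSF8, the ligand of CD30, had 10.2 against 19.5 CPM (ratio 0.523, 0.351 to 0.757), but its ratio was 1.02 in cells of 5000 to 6000 UMIs and 1.73 in those of 1500 to 3000 UMIs. TNFSF11, also known as RANKL, which medullary epithelial cells receive from thymocytes, had 83.2 against 58.0 CPM (ratio 1.43, 1.24 to 1.65), and CSF1, the macrophage growth factor, 25.2 against 16.9 CPM (ratio 1.49, 1.14 to 1.93). The costimulatory ligand CD40LG was nearly level, at 419 against 398 CPM. Of 17 cytokine receptors, IFNGR2 and TGFBR2 were lower and 0 higher (median log2 −0.002). IFNGR2, a chain of the interferon-gamma receptor, had 44.0 against 67.8 CPM (ratio 0.649, 0.538 to 0.777), but 0.831 after depth weighting and 1.10 in cells of 6000 to 12000 UMIs. TGFBR2, a chain of the receptor for TGF-beta, had 10.5 against 16.1 CPM (ratio 0.653, 0.439 to 0.945), but 0.9985 in cells of 6000 to 12000 UMIs. Of 14 egress and migration genes, CCR9 was higher and CXCR4 and S1PR1 lower (median log2 0.04). KLF2, the factor that drives S1PR1, had 574 against 638 CPM (ratio 0.901), and CCR7, the receptor of medullary entry and lymph node homing, 692 against 656 CPM (ratio 1.05).

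Of 27 genes of T cell receptor signalling and costimulation, CD2 was lower and 0 higher (median log2 0.01), beside 1.58% and 1.57% of all genes. CD247, the zeta chain of the receptor complex, had 919 against 674 CPM, a ratio of 1.36 (1.31 to 1.42), while CD3E and CD3D had ratios of 0.970 and 1.01. Chains of the same complex thus differed in ratio. Of 7 SLAM receptors and their adaptor SAP, 0 passed the fold (median log2 0.12), with SLAMF6 at a ratio of 0.726 and SH2D1A, which encodes SAP, at 1.17. Of 14 antigen-receptor response genes, DUSP6 was higher and REL lower (median log2 0.02). DUSP6, a phosphatase that acts on ERK, had 19.8 against 12.4 CPM (ratio 1.59, 1.17 to 2.14), but 0.720 in cells of 6000 to 12000 UMIs and 0 in those of 1500 to 3000 UMIs. REL, an NF-kB subunit, had 42.4 against 66.7 CPM (ratio 0.636, 0.526 to 0.763). MYC, the growth regulator, had 94.7 against 69.4 CPM (ratio 1.37), and EGR1, the first of the EGR response genes, 311 against 325 CPM (ratio 0.957). REL was the 1 member past the fold among 14 NF-kB genes (median log2 −0.15), in which NFKBIZ, an atypical IkB protein, stood at 1.40. Of 13 AP-1 and heat shock genes, 0 passed the fold (median log2 0.04), with FOSB at 0.717.

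The S100, annexin and related list had S100A4 and S100A6 lower of 10 measured and 0 higher (median log2 −0.20), beside 1.58% and 1.57% of all genes. S100A10 had 578 against 678 CPM (ratio 0.853), S100A11 had 288 against 277 CPM (ratio 1.04) and vimentin, VIM, a ratio of 1.01. The lower level was therefore not shared by all members of the family. Of 7 cytotoxic effector genes, GZMH was lower and 0 higher (median log2 −0.006), and CTSW, a cathepsin of cytotoxic cells, had 631 against 485 CPM (ratio 1.30). The list of 21 genes that earlier work on these samples had picked as abundant in the iNKT library is not independent of them. In it HPGDS was higher and CD9, S100A4 and S100A6 lower (median log2 0.07), and TNFRSF4, the costimulatory receptor OX40, had a ratio of 0.965.

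Of 13 S phase genes, MCM4 was higher (ratio 1.76) and GINS2 lower (ratio 0.643, 0.386 to 1.02), both parts of the replication helicase (median log2 0.05). Over all genes, 1.57% were higher and 1.58% lower. Of 7 genes of the G2 and M phase, BIRC5, which encodes survivin, was lower (14 against 136 UMIs, ratio 0.444) and 0 were higher (median log2 −0.24). Directions were not stable: in cells of 6000 to 12000 UMIs MCM4 stood at 0.929 and BIRC5 at 1.23, and in those of 3000 to 4000 UMIs GINS2 stood at 1.06 and BIRC5 at 1.08. Relative to all genes, the median of the G2 and M phase list was −0.28 and ran from −0.71 to 0.35. Cells with at least 10 UMIs of these 2 lists were 1.78% of ZBTB16-high and 1.18% of undetected cells. Past 1.5-fold were 0 of 14 glycolysis and lactate genes (median log2 0.12), 0 of 18 nuclear oxidative phosphorylation genes (0.05), 0 of 12 apoptosis and survival genes (−0.05) and 0 of 2 measured MHC class II genes (−0.08). The 60 ribosomal protein genes and the 13 mitochondrial genes had 0 past the fold, with medians of −0.03 and 0.09. Of 18 interferon-stimulated genes, IFIT2 was higher with 32 and 89 UMIs (ratio 1.55, 1.002 to 2.35) and 0 were lower (median log2 −0.01). IFIT2 stood at 0.817 in cells of 3000 to 4000 UMIs. IFI6, the most abundant of those named, had 1038 against 1237 CPM (ratio 0.839).

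**Figure D5:**
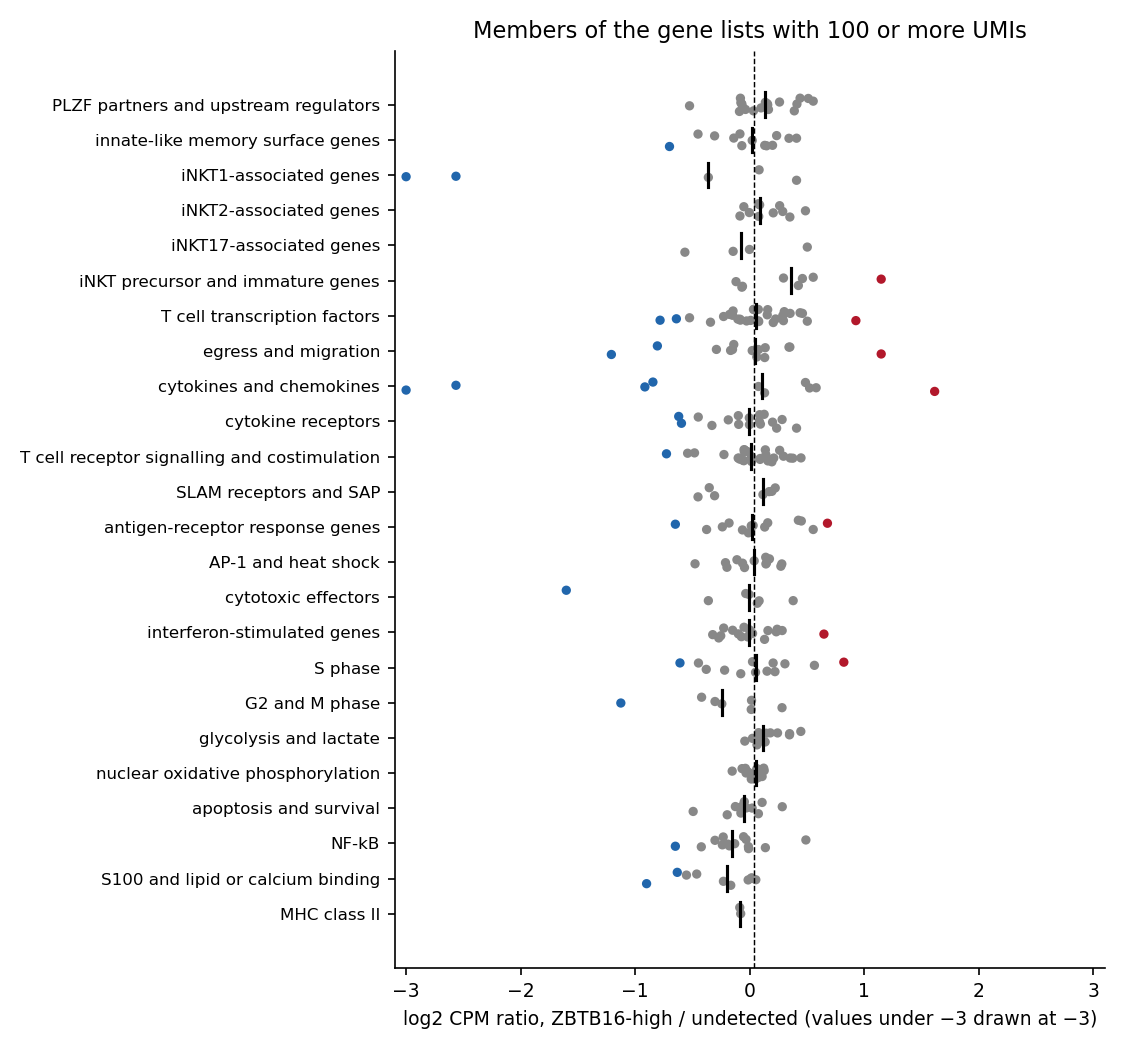
log2 CPM ratio of ZBTB16-high to undetected cells (x axis) for the members of each gene list (rows) with at least 100 UMIs; short black bars are list medians, the dashed line is the median of all tested genes, red and blue points are past 1.5-fold. Most members lie between the fold limits, and the medians run from −0.36 to 0.36, values that move with the settings.

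The same relation can be described from the side of the other genes, over the 7243 cells of the window. It uses the same ZBTB16 counts, so it adds no support to the comparison, and the subsets differ in depth. The 1099 cells with a UMI of CCR9 (median 4490 UMIs) had 271 CPM of ZBTB16 and the 580 cells with a UMI of IL4 (median 4382 UMIs) had 248 CPM. The 2142 cells with at least 2 UMIs of S100A4 (median 4094 UMIs) had 190 CPM, against 234 CPM in the 4279 cells with none (median 4218 UMIs). The 37 cells with at least 2 UMIs of CCL5, XCL1 and GZMH together (median 3749 UMIs) had 115 CPM (67.2 to 185), against 219 CPM in the 7009 cells with none of them. All of these subsets held ZBTB16, the CCL5, XCL1 and GZMH subset included. CCR9 and S100A4 were found together in 4.75% of ZBTB16-high and 2.99% of undetected cells.

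The total thymocyte library, in the same UMI window, gives a scale for these levels, though enrichment and library differ. HPGDS stood at 9.21 CPM there, GAREM1 at 0.598, TGFB2 at 0.837, CD9 at 2.51 and S100A4 at 44.6 CPM, all below both ZBTB16 groups. CCR9 stood at 229 CPM, TOX2 at 97.6, TCF7 at 759, CXCR4 at 402 and CD2 at 685 CPM, all above both. Total thymocytes thus stood above the undetected group for 7 of the 15 genes higher in ZBTB16-high cells and for 10 of the 15 lower ones.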

How the data were processed

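The authors deposited raw UMI counts, whole numbers for each gene and barcode. Cell Ranger 3.1.0 made the matrices, per the file headers, and Seurat 3.1 also appears in the submitters' processing notes. The genome build and annotation are not given in the sources used here.

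Symbols came from the deposited gene list, and for 687 further genes from a gene name table. The ZBTB16 groups were formed on raw counts, so ZBTB16 is not a result. UMIs were summed over the cells of each group (3136850 and 13538141 UMIs) and divided by the group total to give CPM; log2 ratios carry a prior count of 0.5 UMI in each group. Ratios have exact conditional binomial 95% intervals, levels exact Poisson and shares exact Clopper-Pearson intervals. UMIs of 1 library are not independent of its cells, so intervals cover counting error only. No test was made, because each kind of cell has 1 library. Genes with at least 100 UMIs over both groups were compared, and 1.5-fold was the fold used.

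Named genes are the 15 highest and 15 lowest by the interval bound nearest to 1 (mitochondrial, ribosomal and antigen receptor genes left out), list members past 1.5-fold and up to 4 others per list, where a gene on several lists could be named through any of them. Members and lists were chosen with earlier results of these data known. Scrublet at an expected rate of 0.08 called 1 of 11273 cells a doublet, which is too few to be a working call, and no doublet was removed. An alternative removed the 8% of cells with the highest scores. In all, 15 other settings were fixed together with the comparison (thinning to 3000 UMIs, UMI windows, ZBTB16 and mitochondrial thresholds, UMI minimums per gene, TMM factors, equal weight per cell, and leaving out dividing, interferon-responding, other-lineage or doublet-scored cells). Another 8 were chosen after seeing the data: depth weighting in bins of 250 UMIs, the 3000 to 4000 and 5000 to 6000 UMI windows, a minimum of 1000 UMIs, and leaving out cells with CCL5, XCL1 or GZMH, with CCL4 or IL4, with S100A4, or the top cell of each gene. Python 3.11.15, scipy 1.17.1, scanpy 1.11.5 and edgeR 4.0.16 (for TMM factors only) were used, and the ratio and interval code was tested on simulated data.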

Additional observations from a re-analysis of the deposited data

How the results depend on the processing

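Against 122 genes higher and 123 lower of 7783 (1.57% and 1.58%), the number past 1.5-fold differed with the settings. The number of genes compared differed as well. It was 261 higher and 245 lower of 8870 (2.94% and 2.76%) at a minimum of 50 UMIs per gene. At 200 it was 48 and 57 of 6319 (0.760% and 0.902%), and at 1000, 2 and 10 of 2105 (0.095% and 0.475%). With ZBTB16-high cells taken from 2 UMIs it was 47 and 54 of 8243 (0.570% and 0.655%). Taken from 4 UMIs it was 327 and 358 of 7571 (4.32% and 4.73%). By UMIs per cell it was 619 and 616 of 3836 (16.1% and 16.1%) at 1500 to 3000 (39 ZBTB16-high cells). At 3000 to 4000 it was 283 and 338 of 5754 (4.92% and 5.87%). At 5000 to 6000 it was 58 and 40 of 4173 (1.39% and 0.959%). At 4000 to 5000 it was 119 and 76 of 5515 (2.16% and 1.38%), and at 6000 to 12000, 106 and 28 of 6304 (1.68% and 0.444%). With at most 5% mitochondrial UMIs it was 104 and 192 of 6642 (1.57% and 2.89%). These counts do not show that the same genes passed. Of the single-gene ratios under the alternatives, 619 stayed within counting error, 143 moved and 32 changed direction. A change of direction was counted whatever its counting error, so ratios near 1 or from few UMIs are among the 32. The ratio of CD9 at 6000 to 12000 UMIs, whose interval holds 1, is among them. At 1500 to 3000 UMIs, with 39 ZBTB16-high cells, ratios of sparse genes rest on few UMIs. In cells of 1500 to 3000 UMIs the ratio was 0.545 for CCL4, 0.790 for TOX2, 0 for LRTM2, MISP and DUSP6, 4.02 for FSD1L, 1.69 for MDK, 1.54 for STAT6 and 1.73 for TNFSF8. In cells of 6000 to 12000 UMIs it was 0.919 for CCL4, 0.903 for FABP5, 0.896 for TMED8, 1.13 for CXCR4, 1.02 for FSD1L, 1.04 for CD9, 1.08 for STAT6, 1.10 for IFNGR2, 0.720 for DUSP6, 0.929 for MCM4 and 1.23 for BIRC5. At 3000 to 4000 UMIs it was 0.707 for CCL4, 0 for MISP, 0.817 for IFIT2, 1.06 for GINS2 and 1.08 for BIRC5. At 5000 to 6000 UMIs it was 0.577 for CCL4, 1.02 for TNFSF8 and 1.03 for IFNGR2. MISP also turned with ZBTB16-high cells taken from 2 UMIs (0.794), with at most 5% mitochondrial UMIs (0.0623), without interferon-responding cells (0.0518) and without S100A4 cells (0.808). The cause was not tested. No paired analysis was possible because both groups come from the same library. With 1 library of 2 pooled pigs, no difference has a replicate check, and zeros of ZBTB16 include dropouts.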

Other observations

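Some genes with fewer than 100 UMIs over both groups, or with no symbol, also stood apart; all were picked after their values were seen. KLRK1, which encodes the activating receptor NKG2D of cytotoxic cells, had 1 UMI in ZBTB16-high and 55 UMIs in undetected cells (0.319 against 4.06 CPM, ratio 0.0785, 0.00195 to 0.456). These UMIs came from 1 of 674 (0.148%) and 13 of 3310 cells (0.393%), with up to 10 UMIs in 1 undetected cell. HBB, the beta globin gene, had 1 and 29 UMIs. The gene ENSSSCG00000043390 had 23.9 against 8.35 CPM, a ratio of 2.86 (2.11 to 3.87), and ENSSSCG00000023584 had 2.23 against 14.3 CPM, a ratio of 0.157 (0.0621 to 0.329). Genes without a symbol made 8 of the 122 higher and 16 of the 123 lower genes. Among the iNKT-enriched genes that did not reach 1.5-fold, NDST3, a heparan sulphate sulphotransferase, had 128 against 95.1 CPM (ratio 1.35), PDE7B, a cyclic AMP phosphodiesterase, 67.3 against 51.8 CPM (ratio 1.30) and DDC, aromatic amino acid decarboxylase, 94.04 against 73.2 CPM (ratio 1.28).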
